A study of Fundulus heteroclitus with 20 samples.

Results

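Glutamate receptor genes were taken from the deposited count table as those whose description names a glutamate receptor, an ionotropic glutamate receptor or a metabotropic glutamate receptor. Descriptions of proteins that interact with these receptors were left out, which removed 3 genes. The genes described are 24 of 13679: 5 AMPA, 3 kainate, 6 NMDA and 8 metabotropic receptor genes, and 2 whose description names no class. Subunits whose descriptions use other words, or that the table does not list under these words, were not analysed here, so the genes are not a full set for any class. By gene identifier, 23 of the 24 matched a RefSeq annotation of the MU-UCD_Fhet_4.1 assembly, and its named symbols are used below for entries listed only by number.

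Glutamate receptors are the proteins through which the main excitatory transmitter of the vertebrate brain acts. Ionotropic receptors are ion channels built from subunits. AMPA and kainate receptors carry fast excitatory currents, and NMDA receptors admit calcium when glutamate and depolarization coincide. Metabotropic receptors signal through G proteins, with groups I to III differing in their place at the synapse. After mechanical brain injury glutamate is released from damaged tissue, and calcium entry through these channels is a known route to neuronal death in mammals.

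RNA came from midbrain/diencephalon of 10 adult mummichogs (Fundulus heteroclitus), a killifish of salt marshes. In each fish, anesthetized with 2-phenoxyethanol, a needle lesion was made through one side of the optic tectum into the tegmentum and hypothalamus, and tissue was taken at 1 h post-lesion. The lesioned hemisphere and the contralateral, intact hemisphere of the same fish gave 20 libraries, with the intact hemisphere as the control. That control is thus tissue of an anesthetized and injured fish, since no library came from an uninjured one. The labels give left for all intact and right for all lesioned hemispheres, whereas the study's methods divide the sides equally. By the labels, side and lesion cannot be told apart. Strain, sex and age are not given in the sources used here.

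Libraries held 9213580 to 11070103 counts on listed genes, and all 24 receptor genes passed the filter on low counts. The tissue labels were checked against gene lists. All 5 midbrain genes listed (such as otx2 and en2) and all 7 hypothalamic genes (such as trh and otp) were counted in these libraries and passed the filter. No hypothalamic gene was called between the sides, but within fish the mean log2 ratio of that list ran from -2.31 to 1.52. The midbrain list differed between the sides, with 4 of 5 genes positive, 2 higher at an adjusted p up to 0.4, and otx2 at 0.28 on the log2 scale (adjusted p = 0.0476 in edgeR's test). Immediate early genes, which neurons and glia switch on within minutes, served as a check of the lesion, and edgeR's quasi-likelihood test called 10 of 13 higher on the lesioned side at an adjusted p up to 0.1. Of all 10513 genes tested, 5773 had a negative log2 fold change. All 8 neuron genes tested were negative, with a median of -0.10 on the log2 scale and none called. Their mean log2 ratio within fish ran from -0.51 to 0.43 and was positive in 3 of 10 fish. Their summed level spanned 13741 to 20370 CPM, counts scaled to a common library size, on the intact side and 14876 to 18784 on the lesioned side. Of 8 microglia genes, 4 were lower at 0.4 or less and 1 of them at 0.1 or less, with summed levels of 263 to 495 and 251 to 438 CPM. All 5 oligodendrocyte genes tested were negative, and 1 of them, mbp, was lower at 0.4 or less. Of 5 radial glia genes, 3 were positive, 2 negative and none called. Of 4 erythrocyte genes, 2 were tested, at 0.14 and 0.61, and 1 was higher at 0.4 or less. Their mean ratio was positive in 9 of 10 fish. Over all genes, 6.12% were higher and 3.97% lower at 0.4 or less, and 1.28% and 0.0951% at 0.1 or less. The share of any of these cells in the receptor results was not tested. In whole tissue, fewer cells of a type and less RNA per cell cannot be told apart.

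The first question was whether the lesion changed the receptor genes by 1 h. No receptor gene was called between the sides at an adjusted p up to 0.1 (edgeR's quasi-likelihood test with fish as a block, adjusted over all 10513 genes tested), where 1.38% of all genes did (1.28% higher and 0.0951% lower). At 0.4 or less, the permissive cutoff of the study, 3 of the 24 genes were higher and none was lower. That is 12.5% of the receptor genes, against 10.1% of all genes called at that cutoff (6.12% higher and 3.97% lower), a difference of 1 or 2 genes. These were gria3a, grin2b and LOC105926128, one each from the AMPA, NMDA and metabotropic groups. At an unadjusted p under 0.05 there were 4 genes (16.7%, against 11.7% of all genes), all higher, with LOC105917892 as the fourth. DESeq2 with fish as a block called gria3a at 0.1 or less (adjusted p = 0.0838 in that fit) and no other receptor gene. Over the whole table it called 175 genes at that cutoff, of 10536 with an adjusted p in that fit. At 0.4 or less it called the same 3 receptor genes as edgeR, and 380 of those 10536 genes. None of the 24 genes moved the same way in at least 9 of the 10 fish, which 5.74% of all genes did.

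The changes were small. Log2 fold changes of lesioned over intact ran from -0.12 to 0.18, with 14 positive, 10 negative and a median of 0.01 against -0.01 over all genes. For 22 of the 24 genes the 95% confidence interval lay within 0.5 of no change on the log2 scale. The exceptions were LOC105932824 (grin2ca) and LOC105933676, whose intervals were wide because their levels differed greatly between hemispheres in both directions. The count of 3 depended on single fish: it was 6 without fish 3, 1 without fish 6, and 0 without fish 8 or without fish 9. Over all genes the share called moved in the same direction, from 10.1% to 19.6%, 5.29%, 2.65% and 3.02%.

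**Figure D1:**
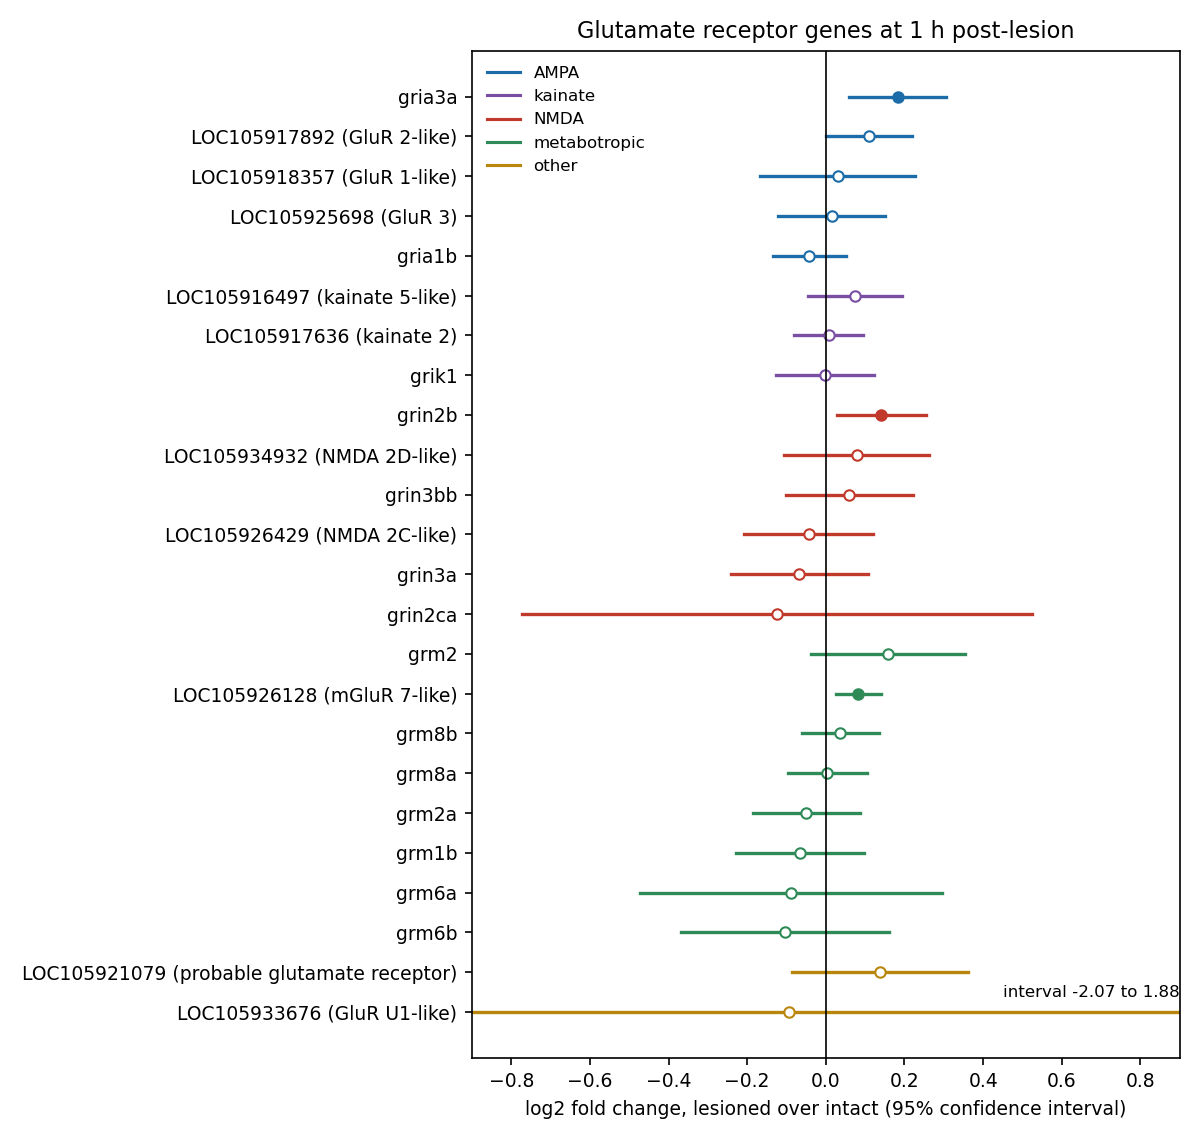
Log2 fold change of lesioned over intact (points) with its 95% confidence interval (lines) for the 24 receptor genes, coloured by group. Filled points have an adjusted p of 0.4 or less (gria3a, grin2b, LOC105926128). The interval of LOC105933676, from -2.07 to 1.88, runs past both ends of the axis.

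Among AMPA receptor genes, which encode the subunits GluA1 to GluA3 here, gria3a (LOC105929373, described as glutamate receptor 3-like) differed most. Its level was 444 to 591 CPM in intact hemispheres (median 542) and 457 to 720 in lesioned ones (median 631). The groups overlapped over most of their range, but within fish the lesioned hemisphere was the higher in 8 of 10, and lower in fish 3 and fish 7. The fold change was 0.18 on the log2 scale (standard error 0.06, 95% confidence interval 0.06 to 0.31), or 13.5% more, and edgeR's quasi-likelihood test gave an adjusted p of 0.234. Flipping the signs of its 10 ratios (exact permutation test, 2-sided) gave p = 0.0234. The largest ratio was in fish 9, at 0.56. Without fish 3 the adjusted p was 0.0616, and without fish 6, 8 or 9 it was 0.404, 0.478 and 0.457 in the same edgeR test.

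LOC105917892, described as glutamate receptor 2-like, is the AMPA gene next in size of change. GluA2 is the subunit that keeps AMPA channels nearly closed to calcium in mammals once its transcript is edited. It averaged 429 ± 37.8 CPM on the intact side (SD, n = 10) and 464 ± 44.4 on the lesioned side. The lesioned side was higher in 7 of 10 fish, by 0.11 on the log2 scale (95% confidence interval 0.0016 to 0.22), with an adjusted p of 0.419 in edgeR's test. The other AMPA genes lay closer to zero: 0.03 for LOC105918357 and 0.01 for LOC105925698, described as glutamate receptor 3, and -0.04 for gria1b (LOC105918360). LOC105918357 and gria1b are both described as glutamate receptor 1-like and carry neighbouring gene numbers in the table. Only gria1b matched the RefSeq annotation, so how reads were divided between them is uncertain. Summed over the AMPA genes, the intact side had 1460 ± 100.3 CPM and the lesioned side 1571 ± 146, and the lesioned side was higher in 7 of 10 fish.

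**Figure D2:**
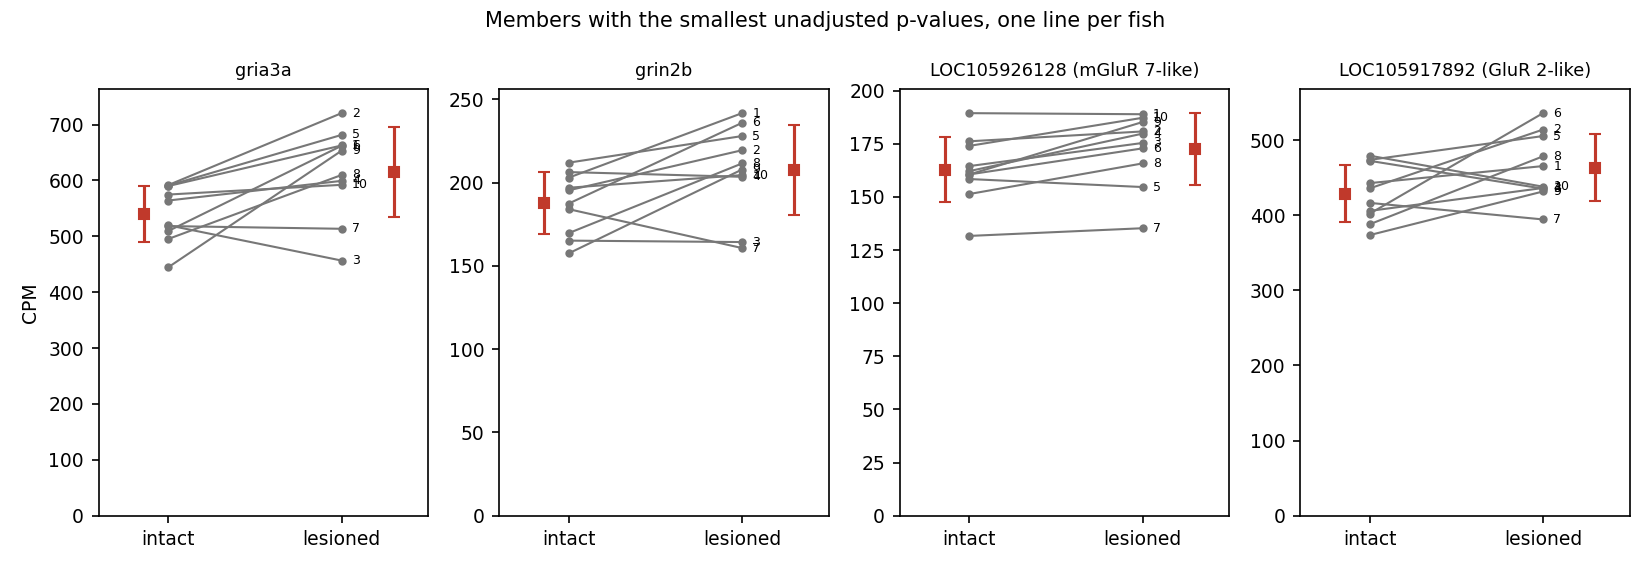
CPM in the intact and lesioned hemisphere of each fish (grey lines, fish number at the right) for the 4 receptor genes with an unadjusted p under 0.05, with group mean and SD (red squares and bars, n = 10). gria3a was higher in the lesioned hemisphere of 8 fish, grin2b of 7, LOC105926128 of 8 and LOC105917892 of 7.

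Kainate receptor genes, whose subunits act on both sides of synapses, showed no call. The one counted most, grik1, ran from 56.95 to 80.1 CPM (median 66.5) on the intact side and from 51.4 to 78.8 (median 68.0) on the lesioned side. These ranges nearly coincide, and its log2 fold change was -0.0024 with a 95% confidence interval of -0.13 to 0.12. LOC105916497, like kainate subunit 5, a high-affinity subunit that needs a partner to form a channel in mammals, ran from 21.7 to 33.8 CPM (median 24.6) on the intact side and from 24.0 to 29.7 (median 25.2) on the lesioned side. Its log2 fold change was 0.07 (-0.04 to 0.19), the largest in size of the group. For LOC105917636, described as kainate 2, the log2 fold change was 0.01 (-0.08 to 0.09). Over intact hemispheres it had the lowest coefficient of variation of the 24 genes, at 5.94%. The group summed to 142 ± 9.03 CPM on the intact side and 144 ± 11.2 on the lesioned side.

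Of the NMDA receptor genes, grin2b was the one called at 0.4 or less. GluN2B is a glutamate-binding subunit with slow currents, prominent in the developing mammalian brain. Its level ran from 158 to 212 CPM (median 191) on the intact side and from 161 to 242 (median 210) on the lesioned side, with wide overlap. The lesioned hemisphere was higher in 7 fish, by up to 0.40 on the log2 scale in fish 9, and lower in fish 3, 4 and 7, with the most negative ratio, -0.20, in fish 7. The fold change was 0.14 on the log2 scale (standard error 0.05, 95% confidence interval 0.03 to 0.25), or 10.3% more. The adjusted p was 0.312 in edgeR's quasi-likelihood test, and the exact permutation of signs gave p = 0.0488 (n = 10). In the edgeR fit the adjusted p was above 0.4 without fish 1, 2, 6, 8 or 9 (0.459, 0.403, 0.503, 0.587 and 0.586).

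The other NMDA genes had log2 fold changes between -0.12 and 0.08 and no call. LOC105934932, like the 2D subunit, which in rodents is typical of midbrain and diencephalon, averaged 82.0 ± 10.9 CPM on the intact side and 86.6 ± 12.1 on the lesioned side (0.08 on the log2 scale). GluN3 subunits, which bind glycine rather than glutamate, are represented by grin3a (-0.07) and by grin3bb (LOC105922872, 0.06). Both genes described as NMDA 2C-like were slightly negative, at -0.04 for LOC105926429 and -0.12 for grin2ca. They differed in spread: the log2 ratios of single fish ran from -0.48 to 0.41 in the first and from -1.73 to 2.08 in grin2ca. The NMDA genes summed to 428 ± 28.7 CPM on the intact side and 448 ± 28.3 on the lesioned side, which was the higher in 8 of 10 fish.

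Among the 8 metabotropic receptor genes, 4 had a positive and 4 a negative log2 fold change, with a median of -0.02. LOC105926128, like mGluR7, a presynaptic group III receptor that restrains transmitter release, was the one called at 0.4 or less. Its level ran from 132 to 189 CPM (median 161) on the intact side and from 135 to 189 (median 178) on the lesioned side. Across fish the groups overlapped entirely, yet within fish the shift was even: 8 ratios were positive and the range was -0.03 to 0.21. Its ratios had an SD of 0.07, smaller than in all but 6.60% of genes. The fold change was 0.08 on the log2 scale (standard error 0.03, 95% confidence interval 0.03 to 0.14), or 5.93% more. The adjusted p was 0.239 in edgeR's quasi-likelihood test, and the exact permutation of signs gave p = 0.00977 (n = 10). Without fish 8 and without fish 9 the adjusted p in the edgeR fit was 0.484 and 0.492.

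Group II receptors lower cyclic AMP and sit on axons and glia. Of these, grm2 (grm2b in the RefSeq annotation) ran from 133 to 327 CPM (median 274) on the intact side and from 203 to 341 (median 296) on the lesioned side. The lowest value was the intact hemisphere of fish 3, at 133 CPM against 203 on its lesioned side, and fish 9 showed the largest ratio (193 and 341 CPM, a log2 ratio of 0.82). The log2 fold change was 0.16 (95% confidence interval -0.04 to 0.35), with an adjusted p of 0.541 in edgeR's test and 6 of 10 fish higher. Its relative grm2a (LOC105927098) had a log2 fold change of -0.05. The group I receptor gene grm1b (LOC105932428), which acts through Gq, had -0.07, and the group III genes grm8a (LOC105931739) and grm8b (LOC105934797) had 0.0040 and 0.04. The genes grm6a (LOC105922948) and grm6b (LOC105934108), relatives of the receptor of retinal ON bipolar cells, were counted least, with 17 to 71 and 46 to 88 counts per library, and had log2 fold changes of -0.09 and -0.10 with standard errors of 0.18 and 0.12.

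Teleosts often carry duplicate copies of a gene. Of these receptor genes, 6 pairs share a subtype number, though whether each pair is a duplication was not examined. For each pair the difference between the log2 ratios of its 2 genes was tested over the 10 fish (exact permutation of signs, 2-sided, Benjamini-Hochberg adjusted over the 6 pairs). The ratio of gria3a exceeded that of LOC105925698 by 0.17 on average (95% confidence interval 0.01 to 0.32, 7 of 10 fish, permutation p = 0.0293, adjusted p = 0.176). The ratio of grm2 exceeded that of grm2a by 0.21 (-0.04 to 0.45, 8 of 10 fish, permutation p = 0.0781, adjusted p = 0.234). For the AMPA 1, NMDA 2C, mGluR6 and mGluR8 pairs the adjusted permutation p was at least 0.618. No pair had an adjusted permutation p of 0.1 or less, while the gria3a and grm2 pairs were under 0.4. The interval of the NMDA 2C pair (-1.02 to 0.86) was too wide to say that its genes respond alike.

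The 2 genes with no named class are kin of kainate-binding proteins, small channel-like proteins known from frogs and birds. LOC105921079, described as a probable glutamate receptor, a name used for the kainate-binding protein of chick cerebellar glia, ran from 1147 to 2014 CPM (median 1671) on the intact side and from 1352 to 2232 (median 1873) on the lesioned side. Its log2 fold change was 0.14 (95% confidence interval -0.09 to 0.36), with 5 fish higher and 5 lower. The 2 largest ratios, 0.78 in each case, were in fish 3 and fish 9.

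LOC105933676, described as glutamate receptor U1-like after a subunit of the clawed frog Xenopus, varied more than any other receptor gene and was singled out, with grin2ca, after its values had been seen. Across the 20 libraries it ran from 1.45 CPM (14 counts) to 341 CPM (3136 counts). In fish 1, 6 and 7 both hemispheres had 6.49 CPM or less. In fish 4, 8, 9 and 10 both had 27.1 CPM or more. In the remaining fish one hemisphere was low and the other high: 103 CPM in intact and 1.51 in lesioned tissue of fish 2, 341 and 1.47 in fish 5, and the reverse in fish 3, with 2.00 in intact and 139 in lesioned tissue. The log2 ratios thus ran from -7.68 to 5.98, with 5 fish higher and 5 lower, and their SD of 3.88 exceeded that of 99.96% of all genes tested. The log2 fold change was -0.09 with a 95% confidence interval of -2.07 to 1.88, so no effect of the lesion was detectable within that spread.

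The NMDA gene grin2ca (LOC105932824) also had wide ratios in fish 2, 3 and 5, and in fish 6 as well. In fish 4, where the log2 ratio of LOC105933676 was 1.73, that of grin2ca was 0.23. GluN2C is the NMDA subunit of cerebellar granule cells in rodents. Its level was 91.5 CPM in intact and 29.6 in lesioned tissue of fish 2, 119 and 35.7 in fish 5, and 58.8 and 26.0 in fish 6. Fish 3 was the reverse, with 31.4 CPM in intact and 134 in lesioned tissue. In the other 6 fish the ratios lay between -0.24 and 0.49 on the log2 scale.

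**Figure D3:**
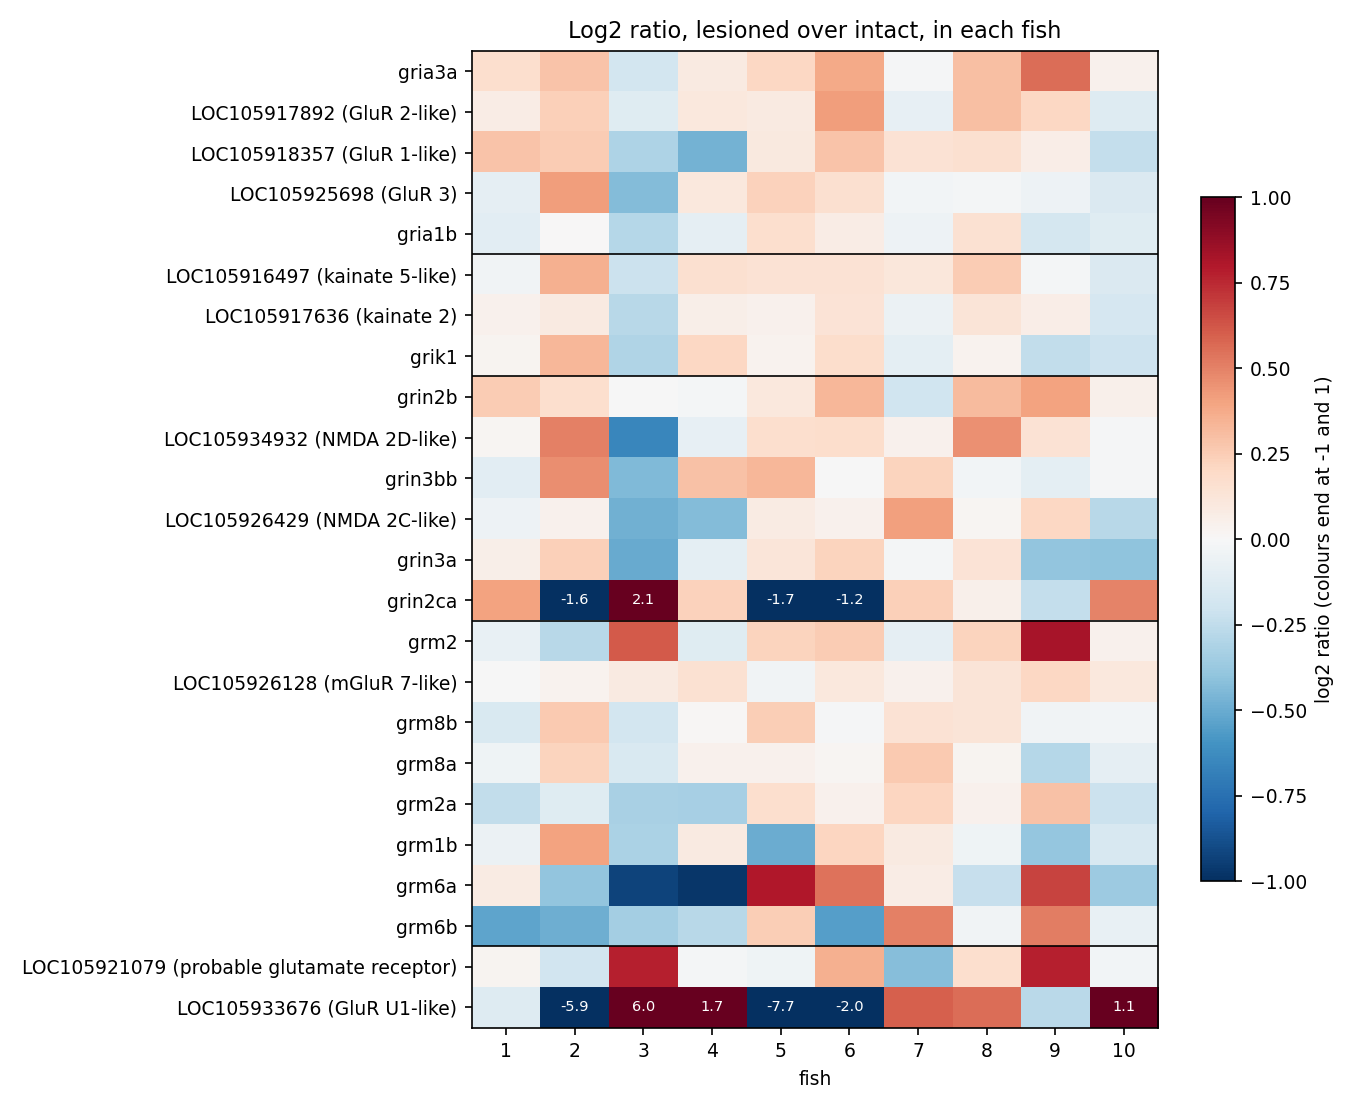
Log2 ratio of lesioned over intact for each receptor gene (rows, grouped by class) in each of the 10 fish (columns). Ratios beyond 1 in size are written in their cells, and they occur only in grin2ca and LOC105933676, with opposite signs in fish 3 and in fish 2 and 5.

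The libraries held different amounts of cerebellar transcripts, and the relation of the receptor genes to these was examined after the pattern above had been seen. A list of 13 cerebellum genes was used, such as fat2, zic1, ca8 and cerebellins. It holds no glutamate receptor, 9 of its genes passed the filter, and none was at 0 in every library. Their summed level was 527 to 1418 CPM on the intact side and 678.6 to 1359 on the lesioned side, and none of the 9 was called between the groups. Within fish, their mean log2 ratio was -1.39 in fish 2, -1.17 in fish 5, -0.62 in fish 6 and 1.91 in fish 3, and between -0.12 and 0.34 in the others. The counts of fat2 show the same 4 fish, in one of the genes with the widest ratios: 2033 in intact and 105 in lesioned tissue of fish 2, 2159 and 553 in fish 5, 1270 and 191 in fish 6, and 21 and 2453 in fish 3. In fish 1, where LOC105933676 was low on both sides, fat2 had 717 and 1024 counts, so the genes do not share every low library. The list did not move as one. The ratios of fat2, LOC105919173, zic1 and LOC105925794 reached at least 1.95 in fish 3, while those of pcp4 stayed between -0.26 and 0.38 and those of ca8 between -0.59 and 0.39. LOC105926772, with only 6 to 43 counts per library, correlated negatively with LOC105933676 across fish (r = -0.48, given as a description). The rest of the tested genes correlated positively with it, from 0.15 in cbln1 to 0.94 in LOC105919173, with ca8 at 0.86. By size of ratio, the list mean thus rests mainly on fat2, LOC105919173, zic1 and LOC105925794. The relation of the receptor genes to the hypothalamic list, whose mean ratio also varied between fish (-2.31 to 1.52), was not tested.

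Across the 10 fish, the log2 ratio of grin2ca followed the mean ratio of the cerebellum list, with a Pearson r of 0.98. The r of grin2ca had a permutation p of 2e-05 (adjusted p = 0.0203 over all 10504 genes tested outside the list). Its Spearman rho was 0.93 (permutation p = 0.0003, adjusted 0.0880). For LOC105933676 the values were r = 0.94 (permutation p = 0.00021, adjusted 0.0283) and rho = 0.83 (permutation p = 0.00468, adjusted 0.175). Without fish 2 and 3, the fish farthest from the median, r was 0.97 for grin2ca and 0.92 for LOC105933676. Fish 5 was kept, with a cerebellum mean of -1.17 and ratios of -1.73 in grin2ca and -7.68 in LOC105933676. Whether these relations hold without all the fish with wide ratios was not tested. Each fish's ratios share 2 libraries and their depth.

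Most other receptor genes went the opposite way: r was negative for 19 of the 24 (79.2%, against 47.9% of all genes). LOC105925698, the AMPA gene described as glutamate receptor 3, had r = -0.96 (permutation p = 6e-05, adjusted 0.0203) and rho = -0.93 (permutation p = 0.00031, adjusted 0.0880), and r was -0.86 without fish 2 and 3. These 3 genes were the ones with an adjusted permutation p under 0.05 for r, which is 12.5% of the receptor genes against 1.9% of all genes. Of them, grin2ca and LOC105933676 had been singled out by their ratios before the relation was examined. The share is thus no separate evidence, and only LOC105925698 had not been picked beforehand. For rho no gene of the 10504 passed (0%), and at an unadjusted permutation p under 0.05 there were 14 receptor genes (58.3%, against 13.3% of all genes). For gria1b, r was -0.77 (permutation p = 0.00762, adjusted 0.126) and rho -0.84 (permutation p = 0.00377, adjusted 0.157), and r stayed at -0.77 without fish 2 and 3. Most of the negative r values were weaker without those fish, such as -0.40 in LOC105934932 and -0.33 in grik1. A few were stronger, such as that of grm6a (-0.54 and -0.67 without them). The sign changed in grm1b (-0.36 to 0.33), grm2 (0.42 to -0.26) and LOC105921079 (0.52 to -0.05). The shares of 79.2% and 58.3% were not computed without those fish. The part of cerebellar tissue in the receptor results was not tested. Of the 3 genes called at 0.4 or less between the sides, gria3a had r = -0.61 (permutation p = 0.0550, adjusted 0.311; rho -0.60, permutation p = 0.0718, adjusted 0.431; r without fish 2 and 3 was -0.27). The values were r = -0.28 (permutation p = 0.445) for grin2b and 0.32 (permutation p = 0.372) for LOC105926128.

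**Figure D4:**
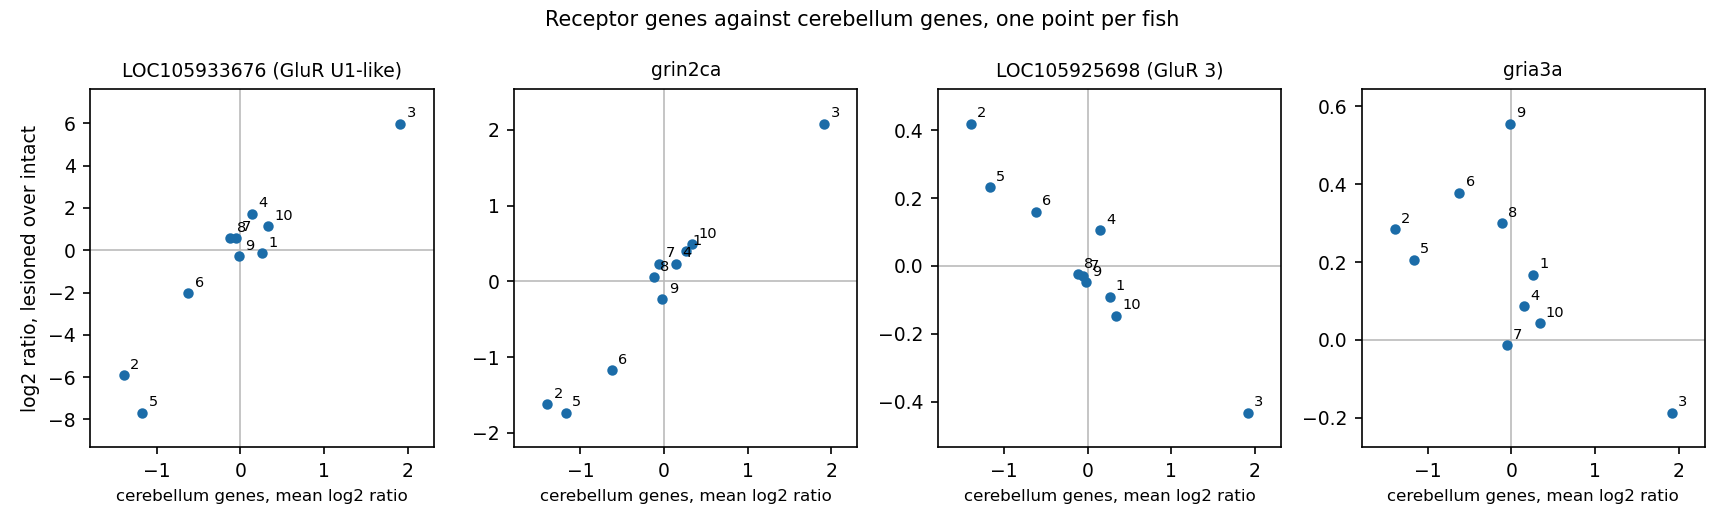
Log2 ratio (lesioned over intact) of 4 receptor genes, on the vertical axis, against the mean log2 ratio of 9 cerebellum genes, on the horizontal axis, one numbered point per fish. LOC105933676 and grin2ca run together with that mean, LOC105925698 runs against it, and gria3a shows a looser, negative relation.

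The lesion comparison was repeated with these values in view. With the cerebellum mean as a covariate, 5 receptor genes had an adjusted p of 0.4 or less in edgeR's test, while 15.2% of all genes did, and none 0.1 or less. In that fit the log2 fold change of gria3a was 0.17 (adjusted p = 0.113). Fish 2, 3 and 5, whose hemispheres differed by more than 1 in the cerebellum mean, were then left out. In that fit 6 receptor genes were called at 0.4, all higher, and again none at 0.1. Of all genes 17.8% were called, and 54.9% of those calls were higher. Among the 6 was LOC105933676 (0.61, adjusted p = 0.311 in edgeR's test). Its widest ratios were in the fish left out, so its call is no separate evidence. By edgeR's quasi-likelihood test in the 7 fish kept, the change in gria3a was 0.22 (adjusted p = 0.132), in LOC105926128 0.11 (0.160), in grin2b 0.17 (0.280) and in LOC105917892 0.13 (0.347), on the log2 scale. These 4 genes were picked by their p-values in all fish, which include these 7, so their shared direction is no separate evidence.

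Other genes of glutamatergic transmission were taken from a list of 48, of which 40 passed the filter. At an adjusted p of 0.1 or less none was called by edgeR's quasi-likelihood test. At 0.4 or less 5 of the 40 were higher and none lower, where 10.1% of all genes were called and 6.12% were higher, and 6 had an unadjusted p under 0.05, which 11.7% of all genes had. DESeq2 called none at 0.1. The median log2 fold change was 0.02. All 5 are scaffold, kinase or auxiliary subunit genes. LOC105926067, like GRIP2, a scaffold that binds AMPA receptor tails, averaged 40.3 ± 8.01 CPM on the intact side (SD, n = 10) and 46.6 ± 8.27 on the lesioned side. It was higher in 9 of 10 fish, by 0.21 on the log2 scale (adjusted p = 0.191 in edgeR's test). The kinase subunit gene camk2a, whose product CaMKII phosphorylates AMPA receptors and binds GluN2B, averaged 875 ± 244 and 1088 ± 223 CPM and was also higher in 9 fish, by 0.35 (adjusted p = 0.239 in edgeR's test). The remaining 3 were camk2b (0.11, adjusted p = 0.326), shisa7, an AMPA receptor auxiliary subunit gene (0.14, adjusted p = 0.336), and dlg3, which encodes a scaffold of NMDA receptors (0.09, adjusted p = 0.347), all from the same edgeR fit. With the cerebellum mean as a covariate, LOC105926067 and camk2b had adjusted p-values of 0.0229 and 0.0435. The number called at 0.4 was 8 without fish 3, where 19.6% of all genes were called. It was 3 without fish 1, 2 or 4 (6.66%, 6.98% and 7.25% of all genes) and 2 without fish 5 (12.3%). It was 1 without fish 6 or 9 (5.29% and 3.02%) and 0 without fish 8 (2.65%).

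No tested gene of glutamate transport or metabolism was called at 0.4 or less, where 10.1% of all genes were. So few of these genes were tested that the absence of calls says little about them. The D-serine enzyme gene listed, LOC105926159, was not tested. The 4 vesicular glutamate transporter genes had log2 fold changes of -0.12 to 0.07, and the 5 tested genes of glutaminase and glutamine synthetase -0.04 to 0.02. The value of -0.12 was that of slc17a8, which averaged 1.73 CPM and had a standard error of 0.27. Of 7 plasma membrane glutamate transporter genes listed, 2 were tested and both were positive, at 0.03 for slc1a2 and 0.42 for LOC105919068. The latter averaged only 2.18 CPM, with a standard error of 0.22 and an adjusted p of 0.511 in edgeR's test. Without fish 10 its adjusted p in that test was 0.372. The 16 AMPA receptor auxiliary genes tested lay between -0.06 and 0.14, and those of kainate receptors, neto1 and LOC105938644, at -0.02 and -0.07.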

How the data were processed

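Whole-number counts per gene of 20 libraries were used as deposited by the authors, without normalization or pooling. Per the study's methods and the submitters' notes, reads were trimmed with cutadapt 1.11, aligned to the Fundulus genome by STAR and counted by HTSeq, and the strand setting is not given in the sources used here. The table also holds columns of the authors' DESeq2 comparison (mean signal, log2 fold change and its error, a Wald score, p-value and adjusted p-value), which were not used. Its 2585 transfer RNA entries were left out.

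Counts were tested with edgeR 4.0.16 in R 4.3.3 (TMM, filterByExpr with minimum count 10 and minimum total 15, quasi-likelihood fit, fish as a block), adjusted by Benjamini-Hochberg over 10513 genes at the study's cutoffs of 0.1 and 0.4. Standard errors are the fold change divided by the square root of F. CPM are TMM-scaled, and each fish's ratio is a difference of log2 CPM (prior count 2), with signs permuted over all 1024 patterns. Correlations used 100000 permutations and were adjusted over 10504 genes. The fit was also run on simulated counts with the same spread for every gene, so that run does not cover genes with wide ratios. Both hemispheres come from 1 fish, and the pair deviated from the group means together (correlation 0.386 to 0.731), while different fish gave -0.207 to 0.201. Alternatives were other scalings, no filter, no block, DESeq2 1.42.0, leaving out each fish, and, added after seeing the data, a cerebellum covariate and the removal of fish 2, 3 and 5.

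Members and lists were chosen with earlier results of these data known, and list entries whose descriptions named another gene were removed. The rule selected 1 further gene that is not reported here. Genes given in full were those at an adjusted p of 0.4 or less, those counted most in each group and those with the largest change in each group. Outside these rules, LOC105917892 was included with its unadjusted p under 0.05 in edgeR's test. The genes grin2ca and LOC105933676 were included for their wide ratios, after these had been seen. Transcript lengths were not used here, so levels are not compared between genes. At 1 CPM a gene has about 10 counts, and CPM carry counting error as well as the spread between fish.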

Additional observations from a re-analysis of the deposited data

Results flagged for a closer look

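In 72 groups of 10 values (log2 ratios of single fish, and log2 CPM of intact and of lesioned hemispheres, for each of the 24 receptor genes), 4 held a value far from the other 9. Chance flags about 1 in 20 such groups, here 3.60.

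For LOC105934932, like the NMDA 2D subunit, fish 3 was the farthest in both its ratio and its intact level. Its log2 ratio was -0.66 where the others ran from -0.08 to 0.51, and its intact hemisphere had a log2 CPM of 6.76 where the others had 6.07 to 6.39. The intact hemisphere of fish 3 is also the one with the fewest fat2 counts, and the part of cerebellar tissue in this value was not tested.

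The lesioned hemisphere of fish 4 had a log2 CPM of 2.14 for LOC105918357, the AMPA gene with the fewest counts, where the others had 2.60 to 3.01. The lesioned hemisphere of fish 10 had 4.48 for LOC105922872 (grin3bb), where the others had 4.96 to 5.39.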

How the results depend on the processing

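Without the replicate block, 57 genes were called at 0.1 and 88 at 0.4 over the whole table, and 0 receptor genes and 0 other glutamatergic genes at 0.4. With DESeq2, 1 receptor gene was called at 0.1, where 175 genes were over the whole table. At 0.4 it called 3 receptor genes and 380 genes over the whole table, of 10536 with an adjusted p in that fit. With no filter on low counts, 3 receptor genes and 674 genes over the whole table (5.03%) were called at 0.4. With the cerebellum mean as a covariate, these counts were 5 receptor genes at 0.4, 225 and 1596 genes over the whole table at 0.1 and 0.4, and 2 and 8 other glutamatergic genes. Without fish 2, 3 and 5 they were 6 receptor genes, 242 and 1873 genes, and 1 other glutamatergic gene at 0.1. With 1 fish left out, receptor genes called ranged from 0 to 1 at 0.1 and from 0 to 6 at 0.4, all genes from 101 to 216 and from 279 to 2066 (without fish 8 and without fish 3), and other glutamatergic genes from 0 to 1 and from 0 to 8. The cause was not tested. The share of higher genes among all calls at 0.4 was 60.7% with TMM, 47.5% when libraries were scaled by total count and 42.3% by upper quartile, while the 3 receptor genes were higher under each scaling.

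Only the receptor genes given in full were followed one by one across the alternatives, so sign changes in the others are not listed. Among those followed, the sign changed in grik1, which was close to no change, and in grin2ca and LOC105933676, whose ratios varied widely between fish. Group medians also crossed zero with 1 fish left out: -0.014 to 0.063 for NMDA, -0.0074 to 0.039 for kainate and -0.050 to 0.015 for metabotropic genes. The AMPA median stayed positive, at 0.0018 to 0.084. For grik1 the log2 fold change was 0.0015 without the block and -0.040 to 0.030 when fish were left out. For LOC105932824 (grin2ca) it was 0.021 without fish 2, 3 and 5 and -0.36 to 0.063 with 1 fish left out. For LOC105933676 it was 0.11 with the covariate, 0.61 without fish 2, 3 and 5 (adjusted p = 0.311, edgeR) and -0.65 to 0.52 with 1 fish left out. The genes gria3a, grin2b and LOC105926128 kept their direction in 18 of 18 alternatives and their call at 0.4 in 14, 12 and 15. The genes grm6a and LOC105918357 had at most 79 counts in any library, where counting error adds to the spread between fish.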
